A study of Mus musculus with 4 samples.

Results

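The genes described are those that the GENCODE mouse annotation types as rRNA, with mitochondrial rRNA left out. Of 354 such genes, 306 are among the 141239 features of the deposited small-RNA table. Of the 306, 149 carry a symbol that starts with n-R5s, the annotation's name for 5S rRNA copies, and 157 carry another symbol. The 48 annotated genes that are not among the features each have the same sequence as a gene that is. Only 134 of the 306 had any count, 172 were listed at 0 in all 4 libraries, and 10 reached at least 100 counts in a library.

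RAW264.7 is a mouse macrophage-like cell line. Its cells carried a short hairpin RNA, either against Dis3l2 (shDis3l2) or a non-silencing hairpin (shNS), and both kinds of culture received doxycycline at 1 µg per mL for 3 days before a change to medium with 10% serum that had been spun to deplete vesicles. Extracellular vesicles were collected from the medium over the next 24 h by centrifugation and a sucrose gradient, and were treated with 20 U of micrococcal nuclease for 30 min. The groups were vesicles labelled shDis3l2, vesicles labelled shNS, cells labelled shDis3l2 and cells labelled shNS, with 1 library each. There was therefore no replicate, no p-value was computed for a ratio between libraries, and the intervals given cover counting error only.

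In mammals the ribosome holds 4 rRNAs. RNA polymerase I transcribes 18S, 5.8S and 28S rRNA as a joint precursor from the 45S repeats, whereas RNA polymerase III transcribes 5S rRNA from a separate tandem array, with a promoter inside the gene. 5S rRNA is bound by TFIIIA, by La and by the ribosomal proteins RPL5 and RPL11 on its way into the large subunit, and in frog oocytes defective copies are bound by the Ro protein. DIS3L2 is an exonuclease of the cytoplasm that trims RNAs from a tail of uridines, and many RNA polymerase III products carry such tails.

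Nearly all the 5S counts fell on genes that differ from the standard gene at a few bases. The annotation places 51 rRNA genes in a tandem array on the minus strand of chromosome 8 (GRCm38, chr8:123538786-123623745), which spans 85 kb with a median spacing of 1.7 kb. Of these, 32 have a sequence identical to n-R5s100, the standard 5S gene, and they are represented by n-R5s100 alone among the features. The array also holds n-R5s102, n-R5s112, n-R5s106 and n-R5s136, whereas n-R5s2 lies on the X chromosome. Compared with n-R5s100, n-R5s102 has 3 substitutions, n-R5s112, n-R5s106 and n-R5s136 have 1 each, at different positions, and n-R5s2 has 4. Gm24089, which has another symbol but sits in the same array, is a 5S copy of 109 nt that lacks positions 26 to 35, counted from 1 at the 5′ end of n-R5s100. The gene n-R5s8 on the X chromosome is a diverged copy of 118 nt with 68.1% identity to n-R5s100.

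n-R5s100 itself was listed at 0 in all 4 libraries. Reads were sequenced to 50 nt, and each of the 70 windows of 50 nt along n-R5s100 also occurs in at least 2 other features. Of these windows, 39 occur in n-R5s102, 26 in n-R5s112, 20 in n-R5s106 and 37 in n-R5s136, and together these 4 genes hold all 70. A read of the standard 5S sequence therefore has no window of its own, and the sources used here do not say how such reads were divided among near-identical copies. Values of single 5S copies are uncertain for that reason, and the sum over the n-R5s genes is given before them. That sum also depends on the division of reads, since features outside it hold some of these windows. Gm24089 holds 35 of them, Tmem38b 21, Gm47301 9 and Gm47285 7. Trimmed reads can be shorter than 50 nt. Of 100 windows of 20 nt, Gm24089 holds 73, Tmem38b 51, Gm47301 39 and Gm47285 37. Each window of 20 nt occurs in at least 8 features other than n-R5s100. A wider sum that adds Gm24089, Tmem38b, Gm47301 and Gm47285 is given below.

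**Figure D1:**
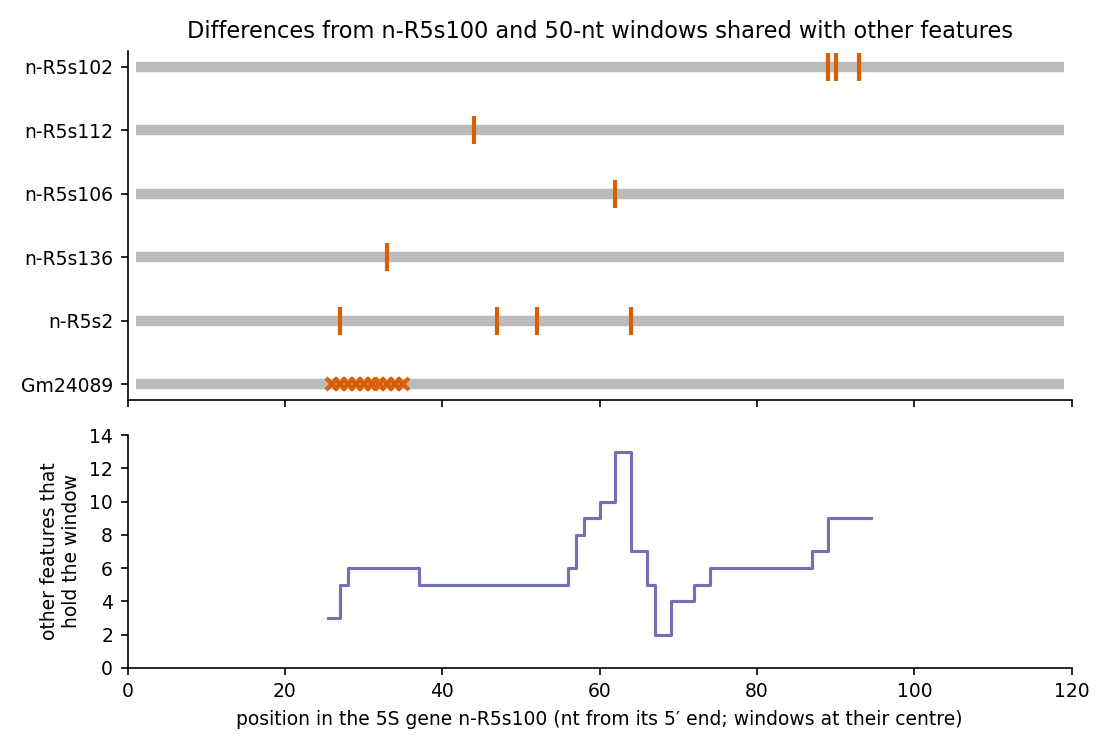
Top: position (nt from the 5′ end of n-R5s100) at which each named 5S copy has a substitution (bar) or a deleted base (cross). Bottom: number of other features that hold each 50-nt window of n-R5s100, drawn at the centre of the window; it lies between 2 and 13, so no window is unique to the standard gene.

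The libraries held between 17612856 and 19741041 estimated counts. miRNA hairpins took 10.5% and 19.1% of the counts in vesicles labelled shDis3l2 and shNS, against 61.2% and 68.3% in cells labelled shDis3l2 and shNS. Counts of the targeted gene were higher under the shDis3l2 label. Dis3l2 had 1894 and 1713 counts in vesicles labelled shDis3l2 and shNS, and 13232 and 41 counts in cells labelled shDis3l2 and shNS. These are counts of short RNA fragments, which do not measure the level of the mRNA, so the labels are used as given and are not checked by them. The part of fragments of the hairpin itself in these counts was not tested. Of 10 macrophage and blood markers, 9 had counts in every library, with Mir223 at 0 in all 4 while its host transcript F630028O10Rik had counts. Summed markers of erythroid cells and serum had 33.7 and 50.7 CPM (counts per 1000000 counts of the library) in vesicles labelled shDis3l2 and shNS, against 0.434 and 0.659 CPM in cells labelled shDis3l2 and shNS. Of these 5 markers 3 and 4 had counts in vesicles labelled shDis3l2 and shNS, and 2 and 3 in cells labelled shDis3l2 and shNS, with Hba-a1 at 0 in all 4 libraries. Summed markers of liver, of muscle, of epithelium and of neurons reached at most 39.3 CPM in a library. 5S rRNA is highly conserved among mammals, and the part of serum RNA in the vesicle values was not tested.

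5S rRNA stood far higher in the vesicle libraries. The n-R5s genes summed to 2099 CPM in vesicles labelled shDis3l2, 1808 CPM in vesicles labelled shNS, 129 CPM in cells labelled shDis3l2 and 81.9 CPM in cells labelled shNS. Both vesicle libraries lay above both cell libraries. CPM are shares of a library, so more 5S fragments and fewer fragments of other RNAs cannot be told apart. These sums rest on 36976 and 32884 counts in vesicles labelled shDis3l2 and shNS, and on 2383 and 1616 counts in cells labelled shDis3l2 and shNS. The vesicle level was 16.2-fold the cell level under the shDis3l2 label (95% interval 15.6 to 16.9) and 22.1-fold under the shNS label (21 to 23.2).

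CT010467.1 held the most rRNA counts in vesicles. It is annotated as rRNA on the minus strand of chr17:39846353-39848201 (GRCm38, 1849 nt), opposite to Gm42418, which occupies the 18S locus on the plus strand. The last 60 bases of the annotated transcript are shown with their reverse complement, which is the start of 18S rRNA, and no base is singled out by capitals.
CT010467.1 as annotated: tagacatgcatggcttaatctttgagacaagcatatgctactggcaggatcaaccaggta
CT010467.1 reverse complement: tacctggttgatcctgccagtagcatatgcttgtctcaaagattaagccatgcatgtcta

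The sources used here do not say whether strand was used in the assignment, so fragments of 18S rRNA and of its antisense cannot be told apart in these counts. Gm42418 was looked up by name and was not found among the features. CT010467.1 had 15492 and 10788 CPM in vesicles labelled shDis3l2 and shNS, against 6030 and 4574 CPM in cells labelled shDis3l2 and shNS. It was 2.57-fold higher in vesicles under the shDis3l2 label (2.55 to 2.59) and 2.36-fold under the shNS label (2.34 to 2.38).

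5.8S rRNA went the other way on this scale. The gene n-R5-8s1, the annotated 5.8S gene of 148 nt on chromosome 18, had 4720 and 3978 CPM in vesicles labelled shDis3l2 and shNS, against 13535 and 10933 CPM in cells labelled shDis3l2 and shNS. It was 2.87-fold lower in vesicles under the shDis3l2 label (2.84 to 2.89) and 2.75-fold lower under the shNS label (2.73 to 2.77). Per kb of gene it remained the densest of the named rRNA genes in every library, at 31894 and 26876 CPM per kb in vesicles labelled shDis3l2 and shNS, and 91450 and 73870 CPM per kb in cells labelled shDis3l2 and shNS. Next in vesicles was n-R5s102, at 10843 and 7963 CPM per kb, which had 707 and 540 CPM per kb in cells labelled shDis3l2 and shNS.

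**Figure D2:**
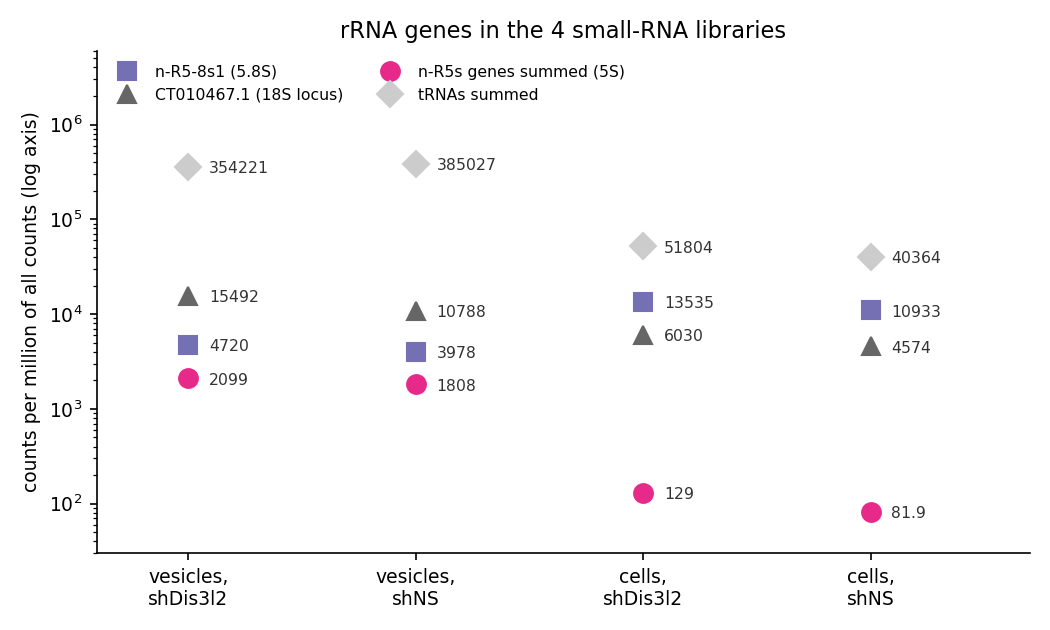
CPM (log axis) in the 4 libraries for n-R5-8s1, CT010467.1, the summed n-R5s genes and, for scale, summed tRNAs; each symbol is 1 library with its value. The 5S sum is at 2099 and 1808 CPM in vesicles labelled shDis3l2 and shNS against 129 and 81.9 CPM in cells labelled shDis3l2 and shNS, whereas n-R5-8s1 is lower in vesicles.

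The make-up of the rRNA counts differed between compartments. CT010467.1 took 69.0% and 64.7% of all rRNA counts in vesicles labelled shDis3l2 and shNS, against 30.5% and 29.3% in cells labelled shDis3l2 and shNS. n-R5-8s1 took 21% and 23.8% in vesicles labelled shDis3l2 and shNS, against 68.5% and 69.9% in cells labelled shDis3l2 and shNS. The n-R5s genes took 9.35% (Wilson 95% interval 9.26 to 9.44) and 10.8% (10.7 to 11) in vesicles labelled shDis3l2 and shNS, against 0.655% (0.629 to 0.682) and 0.524% (0.499 to 0.550) in cells labelled shDis3l2 and shNS. All rRNA genes together took 2.25% and 1.67% of the counts of the vesicle libraries and 1.98% and 1.56% of those of the cell libraries, a smaller difference than that of any of these 3 parts.

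The scale mattered for single genes but not for the ratios among them. Over all genes with at least 100 counts in a pair of libraries, the median log2 ratio of vesicles to cells was 2.42 under the shDis3l2 label and 2.19 under the shNS label. The 5S sum, at log2 4.02 and 4.47, lay above those medians. With edgeR TMM factors (trimmed mean of M-values) its log2 ratios were 1.90 and 2.56. CT010467.1, at 1.36 and 1.24, lay below the medians and turned to -0.76 and -0.66 with TMM factors. n-R5-8s1, at -1.52 and -1.46, turned to 1.02 and 0.38 only when miRNAs were the scale.

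Ratios between rRNAs within a library do not depend on the scale. For every 100 counts of n-R5-8s1 there were 44.5 and 45.4 counts of n-R5s genes in vesicles labelled shDis3l2 and shNS, against 0.956 and 0.749 in cells labelled shDis3l2 and shNS. This ratio was 46.5-fold and 60.7-fold higher in vesicles under the shDis3l2 and shNS labels. With a wider sum that adds features of other names that hold 5S sequence, described below, it was 29.3-fold and 41.2-fold higher. The ratio thus depends on which features are counted as 5S rRNA. For every 100 counts of n-R5-8s1 there were 328 and 271 counts of CT010467.1 in vesicles labelled shDis3l2 and shNS, against 44.6 and 41.8 in cells labelled shDis3l2 and shNS. Against tRNAs, which are also RNA polymerase III products, the 5S excess was smaller: 0.593 and 0.470 counts of n-R5s genes per 100 tRNA counts in vesicles labelled shDis3l2 and shNS, against 0.250 and 0.203 in cells labelled shDis3l2 and shNS.

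Gene by gene, the 2-fold rule asked for at least 100 counts over the 2 libraries, a ratio of at least 2-fold (pseudocount 0.5) and an exact interval that excludes 1. Under the shDis3l2 label 10 rRNA genes had enough counts, of which 8 were higher in vesicles and 1 was lower. Of all 7419 genes compared, 77% were higher and 12.9% lower by the same rule. Under the shNS label 7 of 10 were higher and 1 was lower, where 74.6% of 6880 genes were higher and 13.6% lower. On the CPM scale the share of rRNA genes past the rule was thus near that of all genes. With TMM factors 5 of the 10 rRNA genes were higher and 2 lower under the shDis3l2 label, beside 30.6% and 24.1% of all genes. Under the shNS label 6 of 10 were higher and 3 lower with these factors, beside 30.5% and 24.2% of all genes. n-R5s136, Gm24089 and n-R5s8 reached the minimum only through the vesicle libraries, so their presence among the higher genes follows from the minimum. The same holds for n-R5s2 under the shDis3l2 label, with 210 counts in vesicles and 35 in cells. It also holds for n-R5s112 under the shNS label, with 11719 counts in vesicles and 55 in cells.

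The 5S array genes had the following levels. n-R5s102 had 1290 and 948 CPM in vesicles labelled shDis3l2 and shNS, against 84.2 and 64.2 CPM in cells labelled shDis3l2 and shNS. It was 15.3-fold higher in vesicles under the shDis3l2 label (14.6 to 16.2) and 14.7-fold under the shNS label (13.9 to 15.6), and these intervals overlap. n-R5s112 had 499 and 644 CPM in vesicles labelled shDis3l2 and shNS, against 7.55 and 2.79 CPM in cells labelled shDis3l2 and shNS, a 65.9-fold and a 229-fold difference. Its excess in vesicles was thus larger than that of n-R5s102 under both labels, with intervals of 55.9 to 78.8 and 178 to 307.

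n-R5s106 showed the smallest excess of the 4 array genes under the shDis3l2 label. It had 160 and 131 CPM in vesicles labelled shDis3l2 and shNS, against 32.4 and 8.46 CPM in cells labelled shDis3l2 and shNS. That made it 4.94-fold higher in vesicles under the shDis3l2 label (4.52 to 5.41) and 15.4-fold under the shNS label (13.2 to 18.2). With TMM factors its log2 ratio was 0.19 under the shDis3l2 label, which ended the call, and 2.05 under the shNS label. n-R5s136 had 1567 and 1032 counts in vesicles labelled shDis3l2 and shNS and only 16 and 4 counts in cells labelled shDis3l2 and shNS, and was 99.3-fold (62.9 to 180) and 249-fold (109 to 1030) higher. The deleted copy Gm24089 had 1084 and 841 counts in vesicles and 7 and 7 counts in cells labelled shDis3l2 and shNS, and was 151-fold and 122-fold higher.

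The copies outside the array behaved less alike. The diverged copy n-R5s8 had 490 and 198 counts in vesicles labelled shDis3l2 and shNS, and 0 and 2 counts in cells labelled shDis3l2 and shNS. Against a floor of 3 counts in the cell library it was at least 171-fold higher in vesicles under the shDis3l2 label, and under the shNS label the ratio was 107-fold, with an interval of 29.4 to 893. n-R5s2 had 210 and 68 counts in vesicles labelled shDis3l2 and shNS, and 35 and 77 counts in cells labelled shDis3l2 and shNS. It was 6.20-fold higher in vesicles under the shDis3l2 label (4.37 to 9.25), but under the shNS label its interval spanned 1 (1.04-fold lower, 0.743 to 1.47). With TMM factors the log2 ratios of n-R5s2 were 0.52 and -1.96 under the shDis3l2 and shNS labels, so the first call was lost and it stood lower by more than 2-fold under the shNS label. The diverged 5.8S copy Gm24601 on chromosome 6, with 73.6% identity to n-R5-8s1, had 71.5 and 60.7 CPM in vesicles and 66.1 and 47.5 CPM in cells labelled shDis3l2 and shNS, and passed the rule under neither label. With DESeq2 size factors its log2 ratios were -2.01 and -1.57, lower by more than 2-fold under both labels.

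**Figure D3:**
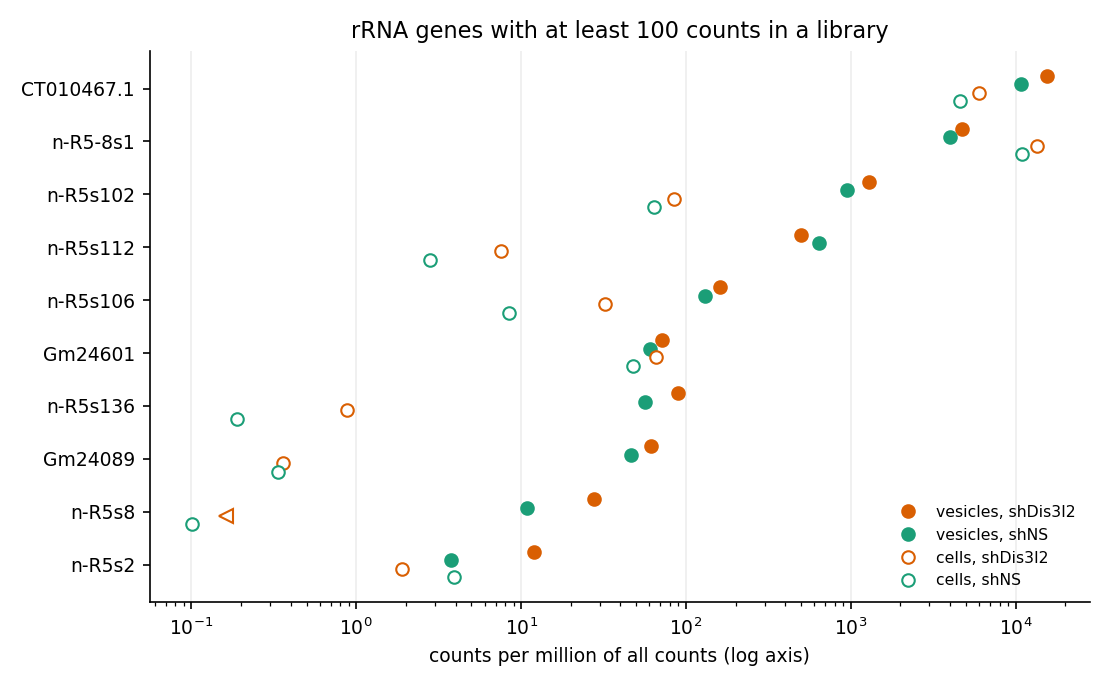
CPM (log axis) for the 10 rRNA genes with at least 100 counts in a library; filled points are vesicles, open points cells, orange shDis3l2 and green shNS, and the open triangle marks a count of 0, drawn at the floor of 3 counts. The 5S array genes and n-R5s8 have both filled points right of both open ones, n-R5-8s1 has them to the left, and Gm24601 has all 4 close together.

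The hairpin labels differed less. In cells the 5S sum was 1.58-fold higher in the library labelled shDis3l2 (1.48 to 1.68), at 129 against 81.9 CPM, a log2 ratio of 0.66 set beside a median of 0.10 over all genes. n-R5-8s1 was 1.24-fold higher (1.23 to 1.25) and CT010467.1 1.32-fold higher (1.31 to 1.33), both short of the 2-fold rule. Per 100 counts of n-R5-8s1 the 5S sum was 1.28-fold higher. Without n-R5s102 the 5S sum had a log2 ratio of 1.36, so the size of the difference varied among copies.

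Of 7 rRNA genes with enough counts in cells, 2 were higher and 1 was lower in the library labelled shDis3l2, beside 13.8% higher and 4.98% lower of 3412 genes. n-R5s106 had 597 counts in cells labelled shDis3l2 and 167 counts in cells labelled shNS, and was 3.82-fold higher (3.22 to 4.58). n-R5s112 had 139 and 55 counts in these libraries and was 2.69-fold higher (1.97 to 3.77). n-R5s2 had 35 and 77 counts and was 2.04-fold lower (1.36 to 3.15), and with the miRNA total as the scale its log2 ratio of -0.87 was short of the rule. With a pseudocount of 5 in place of 0.5, no rRNA gene was called lower. n-R5s102, which held most of the 5S counts, had 1550 and 1268 counts and was 1.31-fold higher (1.22 to 1.41), within the 2-fold limit.

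In vesicles the 5S sum was 1.16-fold higher in the library labelled shDis3l2 (1.14 to 1.18), at 2099 against 1808 CPM. Its log2 ratio of 0.22 was below the median of 0.31 over all genes, and it turned to -0.08 with TMM factors and to -0.06 with DESeq2 size factors. n-R5-8s1 was 1.19-fold higher (1.17 to 1.20) and CT010467.1 1.44-fold higher (1.43 to 1.44). Per 100 counts of n-R5-8s1 the 5S sum was 1.02-fold lower in the library labelled shDis3l2. No direction for 5S rRNA between the vesicle labels therefore held on every scale.

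Of 11 rRNA genes with enough counts in vesicles, 2 were higher in the library labelled shDis3l2 and 0 were lower, beside 10.5% higher and 2.55% lower of 8506 genes. Both lie outside the array, on the X chromosome. n-R5s2 had 210 counts in vesicles labelled shDis3l2 and 68 counts in vesicles labelled shNS, and was 3.17-fold higher (2.42 to 4.26). n-R5s8 had 490 and 198 counts in these libraries and was 2.55-fold higher (2.16 to 3.03). All n-R5s genes outside the array together had 57.4 and 26.9 CPM in these vesicle libraries and were 2.14-fold higher (1.91 to 2.38), a sum in which n-R5s8 and n-R5s2 hold most counts. Without these 2 genes, a sum chosen after the values had been seen, the rest had 311 counts in vesicles labelled shDis3l2 and 223 counts in vesicles labelled shNS and were 1.44-fold higher (1.21 to 1.72). The array genes had 2042 and 1781 CPM and were 1.15-fold higher (1.13 to 1.16). In cells the genes outside the array had 4.34 CPM under the shDis3l2 label and 6.18 CPM under the shNS label, on 80 and 122 counts. n-R5s112 was 1.29-fold lower in vesicles labelled shDis3l2 (1.26 to 1.33), short of the rule, and its log2 ratio of -0.37 turned to 0.49 with the miRNA total as the scale.

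The label ratio of the 5S sum in vesicles minus that in cells was -0.44 on the log2 scale (-0.54 to -0.35), and for the other rRNA genes it was 0.12 (0.11 to 0.13). With 1 library in each combination, no spread between libraries can be set against these differences.

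**Figure D4:**
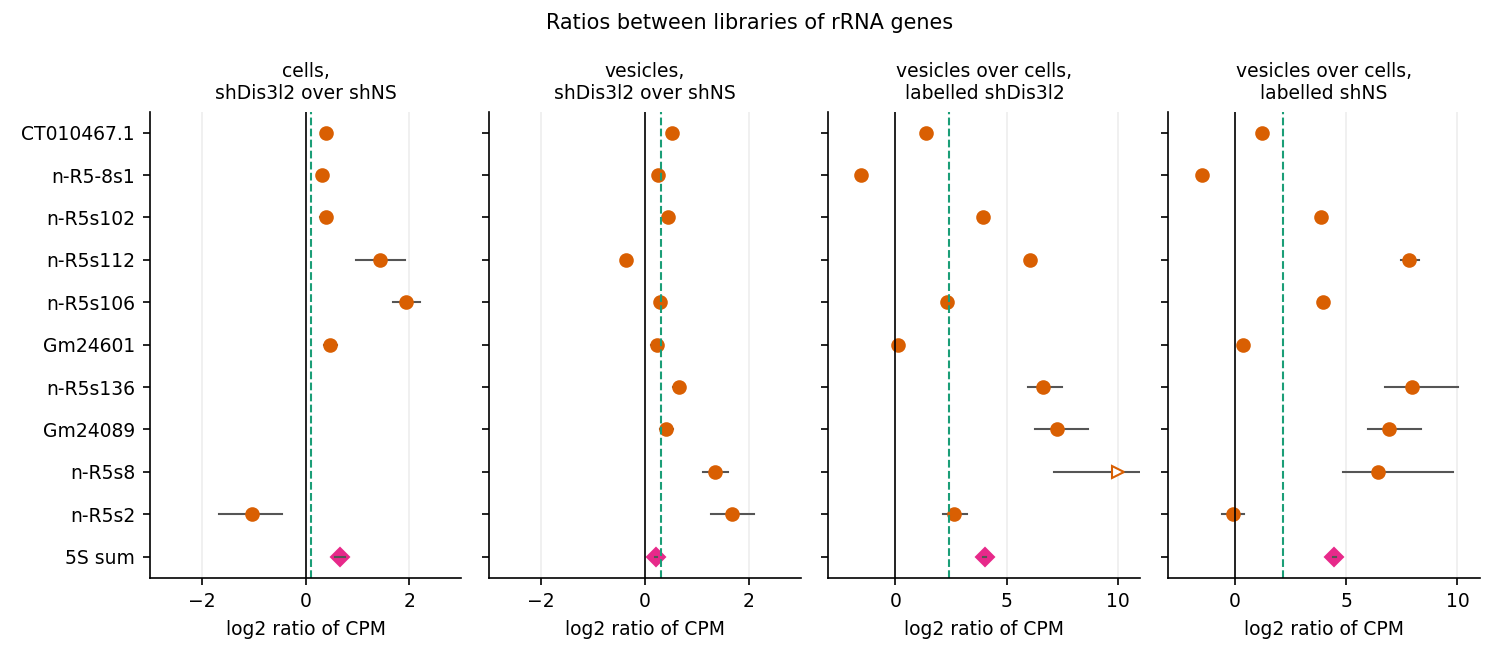
Log2 ratio of CPM for the named rRNA genes and the 5S sum (diamond) in each of the 4 comparisons, with exact 95% intervals that cover counting error only. The dashed line is the median of all genes compared, and the open triangle is n-R5s8, which has 0 counts in cells labelled shDis3l2; genes with too few counts are not drawn.

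The division of the 5S counts among copies differed between libraries. n-R5s102 held 61.5% and 52.4% of the n-R5s counts in vesicles labelled shDis3l2 and shNS, against 65% and 78.5% in cells labelled shDis3l2 and shNS. n-R5s112 held 23.8% and 35.6% in vesicles labelled shDis3l2 and shNS, against 5.83% and 3.40% in cells labelled shDis3l2 and shNS. n-R5s106 held 7.63% and 7.25% in vesicles labelled shDis3l2 and shNS, against 25.1% and 10.3% in cells labelled shDis3l2 and shNS. The 4 array genes n-R5s102, n-R5s112, n-R5s106 and n-R5s136 together held between 92.5% and 98.4% in every library.

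n-R5s112 and n-R5s106 each differ from the standard gene at a single base. For every 100 counts of n-R5s102 there were 38.7 and 68 counts of n-R5s112 in vesicles labelled shDis3l2 and shNS, against 8.99 and 4.37 in cells labelled shDis3l2 and shNS. For n-R5s106 the same ratio was 12.4 and 13.8 in vesicles labelled shDis3l2 and shNS, against 38.5 and 13.2 in cells labelled shDis3l2 and shNS. Whether reads that cover these bases carry them cannot be told from the deposited counts.

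**Figure D5:**
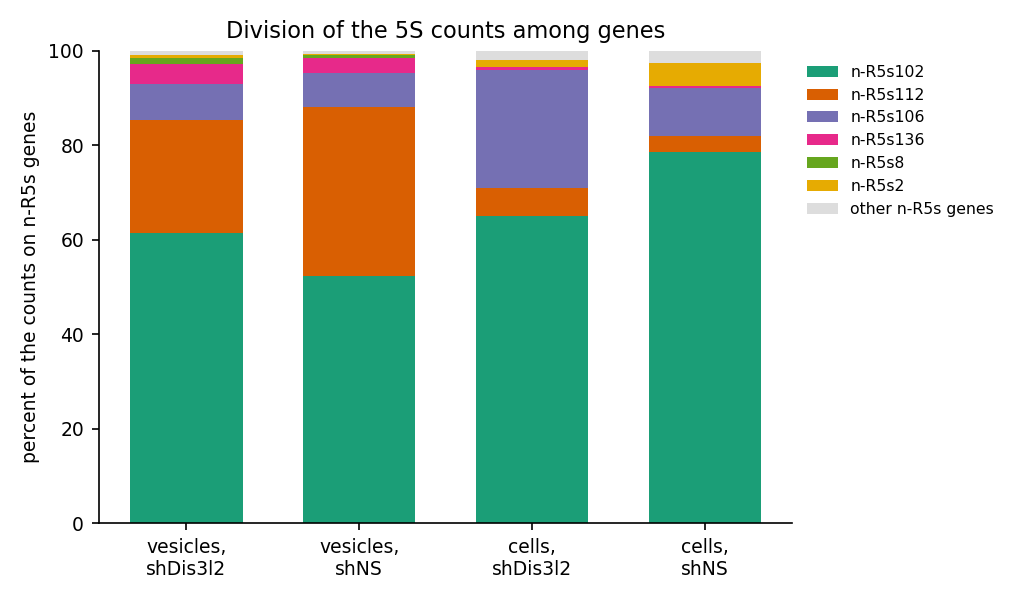
Stacked bars give the percent of the counts on n-R5s genes that each gene holds in the 4 libraries. n-R5s112 holds 23.8% and 35.6% in vesicles labelled shDis3l2 and shNS against 5.83% and 3.40% in cells labelled shDis3l2 and shNS, and n-R5s106 holds 25.1% in cells labelled shDis3l2.

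Grouped by identity to n-R5s100, the 14 listed n-R5s genes with at least 95% identity held 97.8% and 98.8% of the 5S counts in vesicles labelled shDis3l2 and shNS, and 98.1% and 97.4% in cells labelled shDis3l2 and shNS. The 39 genes with 80 to 95% identity held at most 1.15%, and the 96 genes below 80% held at most 1.65%. Of the 143 n-R5s genes under 100 counts in every library, the highest count was 53, that of n-R5s162 in vesicles labelled shNS. Of the 153 other rRNA genes under 100 counts, the highest was 14. More n-R5s genes had a count above 0 in vesicles labelled shDis3l2 and shNS, 54 and 43, than in cells labelled shDis3l2 and shNS, 22 and 21, where the 5S total was also far smaller.

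Features of other annotated types that hold 5S sequence also had counts. The annotation types Gm47301 on chromosome 4 and Gm47285 on chromosome 12 as miRNA. A stretch shared with n-R5s100 covers 58 of 60 nt of Gm47301 and 56 of 61 nt of Gm47285.

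Gm47301 had 627 and 844 CPM in vesicles labelled shDis3l2 and shNS, against 0 and 4.44 CPM in cells labelled shDis3l2 and shNS. Gm47285 had 198 and 232 CPM in vesicles labelled shDis3l2 and shNS, against 53.1 and 28.1 CPM in cells labelled shDis3l2 and shNS. The protein-coding gene Tmem38b, which encodes an ion channel of the endoplasmic reticulum, holds a 5S copy that matches n-R5s100 at 114 of 119 nt in its 3′ UTR. That stretch is also annotated as n-R5s185, which was listed at 0 in all 4 libraries. The Tmem38b transcript with the copy had 1039 and 1023 CPM in vesicles labelled shDis3l2 and shNS, against 211 and 149 CPM in cells labelled shDis3l2 and shNS, and at least 99.85% of the gene's counts in each library. The other 14 features of another type that share at least 30 nt with an rRNA gene had little: 1 of them, a pseudogene transcript of CT010467.1, had 21.7 and 5.35 CPM in vesicles labelled shDis3l2 and shNS, against 0.163 and 0.101 CPM in cells labelled shDis3l2 and shNS, and no other exceeded 5.47 CPM.

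With Gm24089, Tmem38b, Gm47301 and Gm47285 added, features of any annotated type that hold 5S sequence came to 4026 and 3953 CPM in vesicles labelled shDis3l2 and shNS, against 394 and 264 CPM in cells labelled shDis3l2 and shNS. All counts of the Tmem38b transcript of 2862 nt are included, though 119 nt of it is the 5S copy and read positions are not known. They are 3893 of 7261 counts in cells labelled shDis3l2 and 2936 of 5201 counts in cells labelled shNS. This wider sum was 10.2-fold higher in vesicles under the shDis3l2 label (9.97 to 10.5) and 15.0-fold under the shNS label (14.6 to 15.4). In cells it was 1.50-fold higher in the library labelled shDis3l2 (1.44 to 1.55), and in vesicles 1.02-fold higher (1.01 to 1.03). The wider sum was chosen after the values had been seen.

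The genes around 5S rRNA were read from lists of names. Of 29 genes of 5S synthesis and the 5S ribonucleoprotein among the features, 19 had enough counts between vesicles and cells under the shDis3l2 label, of which 15 were higher in vesicles and 1 was lower, beside 77% and 12.9% of all genes. Under the shNS label 15 of 18 were higher and 1 was lower, beside 74.6% and 13.6% of all genes. These shares are near those of all genes. Only 8 genes of the list had at least 100 counts over the 2 cell libraries. Many of the higher genes thus reached the minimum only through vesicles, and their direction is largely set by it. The median log2 ratios of the list were 1.80 and 2.02, beside 2.42 and 2.19 over all genes, and with TMM factors 6 and 5 of them were higher and 4 and 3 lower by the rule, where 30.6% and 30.5% of all genes were higher. Brf1, a TFIIIB subunit, was the gene that was lower on the CPM scale, by 3.46-fold and 2.30-fold. Polr3g, a subunit of RNA polymerase III, had 157 and 96.9 CPM in vesicles labelled shDis3l2 and shNS against 2.93 and 2.23 CPM in cells labelled shDis3l2 and shNS. With 54 and 44 counts in these cell libraries, Polr3g reached the minimum only through vesicles.

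Fragments of the mRNAs of the 2 proteins that carry 5S rRNA differed. Rpl11 fragments had 46.2 and 28.4 CPM in vesicles labelled shDis3l2 and shNS, against 4.02 and 2.13 CPM in cells labelled shDis3l2 and shNS. They had 74 and 42 counts in these cell libraries, so Rpl11 reached the minimum against vesicles only through the vesicle libraries. Rpl5 fragments had 36.2 and 31.2 CPM in vesicles labelled shDis3l2 and shNS, against 35.1 and 7.90 CPM in cells labelled shDis3l2 and shNS. Between the cell labels Rpl5 was the only gene of 8 with enough counts that was higher under shDis3l2 on the CPM scale, by 4.43-fold (3.72 to 5.32). With the miRNA total 2 were higher, but the share of all genes on that scale is not given here, so this count is not read as a result. Mdm2, whose protein is bound by the 5S ribonucleoprotein, was the only lower gene, by 2.58-fold. Of all genes 13.8% were higher and 4.98% lower on the CPM scale. Between the vesicle labels none of 21 was called in either direction, with a median log2 ratio of 0.39 beside 0.31 over all genes. Scaled to the miRNA total, 13 of them were higher, beside 64.8% of all genes.

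Of 22 genes of RNA tailing, trimming and decay among the features, 14 of 15 were higher in vesicles under the shDis3l2 label and 10 of 12 under the shNS label, beside 77% and 74.6% of all genes. Only 3 genes of this list had at least 100 counts over the 2 cell libraries, so the direction of most higher genes is largely set by the minimum. The median log2 ratios of the list were 2.06 and 2.18, beside 2.42 and 2.19 over all genes. With TMM factors 2 and 3 of the list were higher and 2 and 2 lower, where 30.6% and 30.5% of all genes were higher and 24.1% and 24.2% lower. On the CPM scale Dis3l2 was the only lower gene, under the shDis3l2 label. Between the vesicle labels none of 18 was called, whereas 12 were higher with the miRNA total as the scale, beside 64.8% of all genes. Between the cell labels 1 of 3 was higher under shDis3l2, Dis3l2 itself, beside 13.8% of all genes. As stated above, the Dis3l2 counts do not measure its mRNA.

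Other RNA polymerase III transcripts were set beside 5S rRNA. Of 7 with enough counts, 6 were higher in vesicles under each label, beside 77% and 74.6% of all genes. With TMM factors 3 and 4 were higher and 1 and 0 lower, where 30.6% and 30.5% of all genes were higher and 24.1% and 24.2% lower. Rpph1, the RNA of RNase P, was 21.2-fold and 10.7-fold higher in vesicles under the shDis3l2 and shNS labels, and the signal recognition particle RNA Rn7s1 18.9-fold and 10.3-fold. The vault RNA Vaultrc5 was 13-fold and 18.1-fold higher. The Y RNA Rny1, which is bound by the Ro protein, was 4.73-fold and 5.14-fold higher. Rmrp, the RNA of RNase MRP, was 1.83-fold and 1.91-fold higher and did not pass the rule. The 5S sum, at 16.2-fold and 22.1-fold, lay within or just above the range of the RNAs named in this paragraph. The median log2 ratios of all 7 were 2.24 and 3.37 under the shDis3l2 and shNS labels, both below the 5S sum.

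In cells 2 of the 7 were higher in the library labelled shDis3l2, Rny3 by 4.41-fold and Rn7sk by 2.15-fold, beside 13.8% of all genes. Rn7s1 was 1.19-fold lower and Rny1 1.14-fold lower. Between the vesicle labels none of the 7 passed the rule, and with the miRNA total as the scale 3 were higher, beside 64.8% of all genes. Of the list of 9 names of transcripts from the 45S repeat, only Mir6240 and Mir6236 were found among the features. Mir6240 had 4123 and 2026 counts in vesicles labelled shDis3l2 and shNS, and 2517 and 1626 counts in cells labelled shDis3l2 and shNS. Mir6236 had 2963 and 1348 counts in vesicles labelled shDis3l2 and shNS, and 1712 and 999 counts in cells labelled shDis3l2 and shNS. Both were higher in vesicles labelled shDis3l2 than in vesicles labelled shNS, by 2.10-fold and 2.27-fold, beside 10.5% of all genes higher by the rule. With TMM factors neither passed the rule.

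An additive fit of compartment and label over the 4 libraries, which has 1 residual degree of freedom, was set beside the ratios. By edgeR's quasi-likelihood test with TMM factors and Benjamini-Hochberg adjustment, 39.9% of 10787 genes differed between vesicles and cells, and 31.7% by DESeq2. Of the 11 rRNA genes in the fit, n-R5s136, Gm24089, n-R5s8 and n-R5s162 reached the count minimum only through the vesicle libraries, and no p-value is given for them. n-R5s102 and n-R5s112 were higher in both vesicle libraries than in both cell libraries. The fitted log2 difference was 1.90 for n-R5s102 (edgeR adjusted p = 0.0283) and 4.93 for n-R5s112 (edgeR adjusted p = 0.000747). The fitted difference was -3.50 for n-R5-8s1 (edgeR adjusted p = 0.00141), which was lower in both vesicle libraries, and -1.77 for Gm24601 (edgeR adjusted p = 0.0325), whose CPM was slightly higher in vesicles under both labels. DESeq2 called these 4 genes as well. CT010467.1, n-R5s106 and n-R5s2 were not called by either tool. For the hairpin label edgeR and DESeq2 each called 0 of the 11 and had 0 at an unadjusted p under 0.05, beside 0.139% and 0.148% of all genes called.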

How the data were processed

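Small RNA libraries were prepared with the QIAseq miRNA library kit and sequenced to 50 nt, per the labels' protocols. cutadapt, Salmon and Novoalign are named with the builds GRCm38 and mm10, per the submitters' processing notes. The table that the authors deposited holds estimated counts for each transcript, with reads trimmed and assigned by those tools per the submitters' processing notes. Among values above 0, 6.56% are whole within 0.001, and all were rounded. The sources used here do not state strand handling, the use of molecular tags or the treatment of reads shared among copies.

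Transcripts were typed with GENCODE release M21 and summed by gene and type. CPM divide a count by the total over all features. Log2 ratios used a pseudocount of 0.5 for genes (none for sums) with at least 100 counts over 2 libraries, and exact conditional (Clopper-Pearson) 95% intervals, which cover counting error only; a count of 0 allows 3 counts. Shares have Wilson intervals. Additive fits used edgeR 4.0.16 and DESeq2 1.42.0 under R 4.3.3; other steps used Python 3.11.15 and scipy 1.17.1. On simulated counts for the label comparison in cells, with 138 of 3330 genes changed 4-fold, the 2-fold rule called 100% of them. The changed genes were drawn from those with many counts, and the change was larger than the rule asks. The simulation therefore does not show how the rule performs at low counts or smaller ratios, and its false calls are not given here.

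Named genes are rRNA genes with at least 100 counts in a library, Dis3l2, listed genes with enough counts and features of other types that share at least 30 nt with an rRNA gene, the low ones as a group. The members, lists and tests were chosen with earlier results of these data known. Each group has 1 library, so pairs of libraries were compared without a test, and the additive fits test compartment and label with 1 residual degree of freedom. The 5S sequences are not reported here.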

Additional observations from a re-analysis of the deposited data

Results flagged for a closer look

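For 2 of the 5S copies the label ratio pointed in opposite directions in vesicles and in cells, with both intervals away from 0. The log2 ratio of n-R5s112 was -0.37 in vesicles and 1.44 in cells, a difference of -1.81 (-2.26 to -1.35). With the miRNA total as the scale its ratio in vesicles turned to 0.49, the same direction as the 1.59 in cells. The log2 ratio of n-R5s2 was 1.67 in vesicles and -1.04 in cells, a difference of 2.71 (2.01 to 3.41). The differences were not tested, since each combination has 1 library, and the counts in cells were small (139 and 55 for n-R5s112, 35 and 77 for n-R5s2).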

How the results depend on the processing

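No paired analysis was possible because the labels give no replicate numbers that groups share; the additive fit, with label as a term, compares vesicles with cells within each label. Depth limits the 5S copies in cells most, where n-R5s136, Gm24089 and n-R5s8 had at most 16 counts. Ratios are log2. In cells, shDis3l2 over shNS, the 5S sum (0.66) was 0.818 with the miRNA total and 1.36 without n-R5s102; the sum of other rRNA genes (0.34) was 0.261 with TMM factors, 0.253 with DESeq2 size factors, 0.494 with the miRNA total and 0.309 without CT010467.1. In vesicles, shDis3l2 over shNS, the 5S sum (0.22) turned to -0.0762 with TMM, -0.0613 with DESeq2 and -0.0883 without n-R5s102, and was 1.08 with the miRNA total, 0.0211 with features that share 30 nt and 0.0263 with 5S sequences of any type, an alternative chosen after seeing the data; the other rRNA sum (0.45) was 0.16, 0.175 and 1.31 with TMM, DESeq2 and the miRNA total, and 0.249 without CT010467.1. For vesicles over cells the 5S sum (4.02 under shDis3l2, 4.47 under shNS) stayed above 0: 1.90 and 2.56 with TMM, 1.90 and 2.54 with DESeq2, 6.56 and 6.30 with the miRNA total, 4.16 and 5.61 without n-R5s102, 3.33 and 3.89 with features that share 30 nt, and 3.35 and 3.91 with 5S sequences of any type. The other rRNA sum (0.05 and -0.06) was -2.07 and -1.96 with TMM, -2.07 and -1.99 with DESeq2, 2.59 and 1.77 with the miRNA total, and -1.49 and -1.43 without CT010467.1. CT010467.1 (1.36 and 1.24) turned to -0.76 and -0.66 with TMM and to -0.76 and -0.69 with DESeq2, and n-R5-8s1 (-1.52 and -1.46) to 1.02 and 0.38 with the miRNA total. The label ratio in vesicles minus that in cells was -0.662, -0.639 and 0.258 for the 5S sum (-0.44) and -0.101, -0.078 and 0.819 for the other rRNA sum (0.12) with TMM, DESeq2 and the miRNA total. The shifts with TMM, DESeq2 and the miRNA total follow from the scale, which moves every gene of a comparison alike, and the others change which genes are summed. Counts of called genes moved as follows. In cells, with a count minimum of 1000 there were 0 higher and 0 lower (2 and 1 as reported), and with a pseudocount of 5 there were 0 lower. In vesicles, 9 were higher with a minimum of 10 and 0 with a minimum of 1000 (2 as reported). For vesicles over cells under shDis3l2, 5 were higher and 2 lower with TMM and also with DESeq2 (8 and 1 as reported), and 20 were higher with a minimum of 10. Under shNS, 14 were higher with a minimum of 10 (7 as reported), and 3 were lower with TMM and with DESeq2 (1 as reported). Shares over all genes at a minimum of 10 or 1000 are not given here, so the counts at these minimums are not read as a result. Summing genes of the same sequence changed no count, since all 306 listed genes differ in sequence.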
